A study of Homo sapiens with 3 samples.

Results

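The genes for the proteins of the cytosolic ribosome were followed in HaCaT cells after siRNA against SRSF5, a splicing factor of the SR family, whose proteins bind pre-mRNA. They were taken by symbol, as every gene named RPL, RPS, RPLP or RPSA in the usual form, including relatives whose names end in L or L1. Of 60506 genes listed on chromosomes, 83 matched, with 808 listed transcripts. A summed FPKM (a fragment count scaled to transcript length and library size) of at least 1, as the mean of the 3 libraries, kept 81 of the 83, among 13923 genes that passed the same filter. The 81 are 49 large subunit and 32 small subunit genes. All 32 small subunit matches passed, while RPL3L and RPL10L, of the 51 large subunit matches, did not. The lowest that passed were RPS27L, RPL39L and RPS9, with mean summed FPKM of 11.8, 18.8 and 30.3, so no member lay close above the limit. RPL3L, a relative of RPL3 known from striated muscle, had 0.0416, 0.0772 and 0.364 FPKM per listed transcript in the control, siRNA 1 and siRNA 2 libraries. RPL10L, a relative of RPL10 known from testis, had 0.0160, 0.00845 and 0.00985 in the same order.

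HaCaT is an immortalized human keratinocyte line, labelled wild type. All 3 libraries came from cells transfected with siRNA at a final concentration of 10 nM: 1 with a control siRNA, 1 with SRSF5 siRNA No.1 and 1 with SRSF5 siRNA No.2, called siRNA 1 and siRNA 2 here. The siRNA comparisons share the 1 control library, each siRNA has 1 library, and the labels name no repeat culture. An untransfected culture, a time course and a rescue were not analysed here. A difference between libraries therefore holds the effect of the siRNA and that of the culture and the library, which cannot be told apart.

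Each cytosolic ribosome is built from 1 copy of most ribosomal proteins, so cells keep the output of many separate genes in balance. Their mRNAs belong to the TOP class: transcription starts at a C that is followed by a run of pyrimidines, and this 5′ terminal tract lets the mTOR pathway, through LARP1, control their translation and stability together. The large subunit joins amino acids and holds the exit tunnel of the new protein. The small subunit reads the mRNA. In keratinocytes, as in other dividing cells, ribosomal protein mRNAs are among the most abundant messages.

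The annotated starts of the members that the results turn on are shown first, since a shared start is what marks this class. Each line gives 30 bases of the sense strand, 10 before the annotated start and 20 from it, from RefSeq on GRCh38.p14. Capitals mark the pyrimidine run where the start base is C and at least 4 pyrimidines follow. A line with no capitals has no such run at its annotated start. RPL34 and RPL26L1 each have a further annotated start, not printed, without such a run.
RPS6 (chr9:19380217-19380246, minus strand): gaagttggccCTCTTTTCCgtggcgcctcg
RPL34 (chr4:108620566-108620595, plus strand): cttttttcttCCTCTTCCggggacgttgtc
RPL13A (chr19:49487598-49487627, plus strand): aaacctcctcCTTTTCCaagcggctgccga
RPL39 (chrX:119791611-119791640, minus strand): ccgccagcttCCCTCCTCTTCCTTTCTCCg
RPS27 (chr1:153990752-153990781, plus strand): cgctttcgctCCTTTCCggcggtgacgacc
RPS27L (chr15:63157458-63157487, minus strand): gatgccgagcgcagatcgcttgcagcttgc
RPL22 (chr1:6199576-6199605, minus strand): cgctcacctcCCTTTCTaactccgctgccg
RPL22L1 (chr3:170870176-170870205, minus strand): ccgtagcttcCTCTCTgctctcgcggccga
RPL26 (chr17:8383174-8383203, minus strand): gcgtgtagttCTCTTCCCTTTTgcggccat
RPL26L1 (chr5:172958719-172958748, plus strand): tccaggggtcggcgaacgaaacgcggagct
RPL7L1 (chr6:42879606-42879635, plus strand): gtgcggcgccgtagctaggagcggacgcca
The starts of RPS27, RPL22 and RPL26 begin with such a run, and so does that of the relative RPL22L1. The annotated starts of the relatives RPS27L, RPL26L1 and RPL7L1 do not. A start without the run is not particular to the relatives: RPL17, RPL19, RPS4X, RPS15 and RPS26, not printed, lack it too.

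With windows on chromosome 8 left out for members and all genes alike, 65 members had at least 1 RefSeq start window. These were 80 windows in all, each of 300 bases (250 before the start and 50 from it). A pyrimidine start, a C followed by at least 4 bases that are each C or T on the sense strand, was present in 47 of the 80 windows (58.75%), against 1429 of 35116 windows of all genes (4.07%). Counted by gene, 47 of 65 members (72.3%) had one, against 1404 of 27305 genes (5.14%). The letters CCGGAAG, searched on both strands, were in 28 of the 80 member windows (35%) and in 3603 of all windows (10.3%), and 2 of the member matches overlapped the pyrimidine run. A match is a description of the letters in the window and no measure of binding.

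The values behind the members rest on large read numbers in libraries of similar size. Each gene was counted by its listed transcript with the most read equivalents in the control, at 100 bases per read equivalent. On this count the libraries held 18323681 read equivalents for the control, 17702216 for siRNA 1 and 15856001 for siRNA 2. The median member had 2569, 2205 and 2699 of them. The level of SRSF5 itself was 4.95 FPKM per listed transcript in the control, and 2.33 and 0.983 with siRNA 1 and siRNA 2, which is 47.1% and 19.8% of the control (limma adjusted p = 0.999971 over all genes tested). Mitochondrial transcripts held 13.7%, 14.8% and 10.0% of all base overlaps, and the 10 keratinocyte markers had summed levels of 1166, 1389 and 2282 FPKM per listed transcript. KRT14 alone had 238, 347 and 1055 of these, and with siRNA 2 7 of the 10 markers were above the control and 3 below it. Of 9 fibroblast, 5 melanocyte, 4 endothelial and 5 immune markers, 2, 1, 1 and 0 passed the filter, and their summed levels stayed between 0.109 and 1.33. Of the melanocyte markers 2 were listed at 0 in all 3 libraries.

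The share of the library taken by the members moved in opposite directions with the siRNAs. The 81 genes held 1.66% of the read equivalents in the control (95% Wilson interval 1.66% to 1.67%), 1.45% with siRNA 1 (1.44% to 1.45%) and 2.12% with siRNA 2 (2.12% to 2.13%). The siRNA 1 library was lowest and the siRNA 2 library highest, and the intervals, which cover counting error only, do not overlap. Large subunit genes made up 1.09%, 0.934% and 1.40% of the library and small subunit genes 0.573%, 0.514% and 0.727%. Counted in the same way as the members, mitochondrial RNA held 33.3%, 35.3% and 26.0%. Its share was ordered the other way, highest with siRNA 1 and lowest with siRNA 2. With mitochondrial reads left out of the total, the members held 2.49%, 2.24% and 2.87%, in the same order as before. The part of mitochondrial RNA in the differences of single members was not tested beyond this rescaling and the one given with the alternatives.

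Levels between members spanned a wide range in every library. A level here is the mean FPKM over a gene's listed transcripts, which is per length, and the median member had a mean level of 74.3 over the 3 libraries, against 2.21 for the other genes tested. Of the large subunit, RPLP1 and RPL12, which form and anchor the stalk that recruits elongation factors, had the highest mean levels. RPLP1 had a level of 435 FPKM in the control, and 418 and 556 with siRNA 1 and siRNA 2. RPL12 had 414, 371 and 560. Both were lowest with siRNA 1 and highest with siRNA 2, and so was RPLP2, the partner of RPLP1 in the stalk, with 309, 256 and 384. RPL35, at the mouth of the exit tunnel, had a level of 387, 321 and 390. RPL19, which bridges the subunits, had 320, 284 and 371. RPLP0, the base on which the stalk proteins sit, had lower levels than either partner in all 3 libraries, at 67.1, 65.9 and 85.4. A mean over listed transcripts depends on how many are listed, and RPLP0 has 27, against 5 for RPLP1 and 8 for RPLP2. Summed FPKM in the control was 1812, 2174 and 2475 for RPLP0, RPLP1 and RPLP2. A sum counts the reads of a shared exon for every listed transcript that holds it, so it also depends on how many are listed. By the transcript with the most read equivalents in the control, RPLP0 had 3955 in that library, RPLP1 11695 and RPLP2 6467. RPLP0 was thus lowest on this count as well, which is not scaled to length.

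Among the small subunit genes, RPS6, the substrate of the S6 kinases downstream of mTOR, had a level of 292 FPKM in the control, and 268 and 327 with siRNA 1 and siRNA 2. RPS27, a zinc finger protein of the small subunit, had 302, 246 and 278, and was below the control with both siRNAs. RPS4X, encoded on the X chromosome, had 242, 232 and 304. RPS12 had 236, 229 and 305, and RPS15, near the decoding site, had 220, 186 and 232. Apart from RPS27, these small subunit genes kept the order of siRNA 1 lowest and siRNA 2 highest. RPSA, also known as the laminin receptor, had 44.0, 40.5 and 52.4 in that same order.

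**Figure D1:**
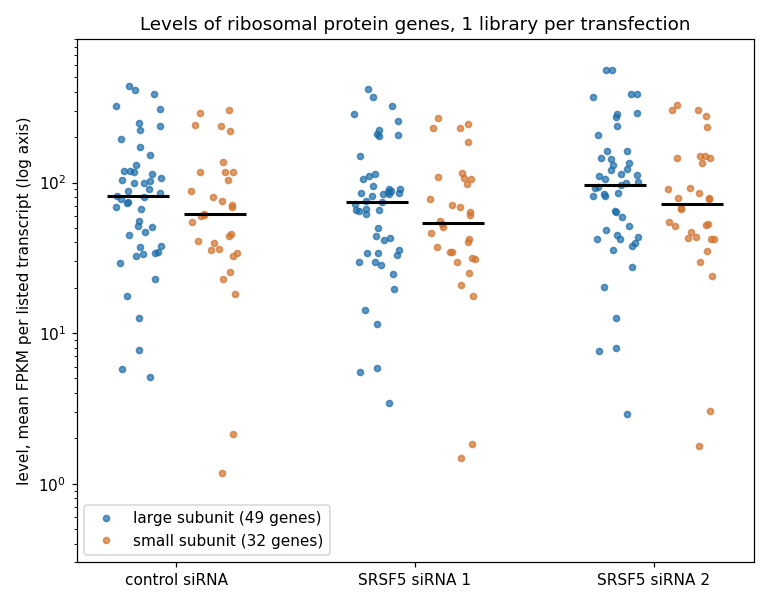
Level of each member in each library (mean FPKM per listed transcript, log axis), 1 point per gene, spread sideways for sight, with large and small subunit genes apart and a line at each median. The medians are lowest with siRNA 1 (73.9 and 54.1 for large and small subunit) and highest with siRNA 2 (97.0 and 72.4).

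With siRNA 1, most ribosomal protein genes lay slightly below the control. The median log2 ratio over the members, on the scale log2(summed FPKM + 1), was -0.17, with quartiles of -0.25 and -0.11. Of 81 members 77 were below the control, against 53.4% of all genes tested, whose median was -0.02. The 4 members above the control were RPS27L, RPL23A, RPL41 and RPL10. A difference of at least 1.5-fold was reached by 1 member on the lower side (5.47% of all genes tested) and by 0 on the higher side (6.18%), and 31 members were within 10% of the control (34.5% of all genes tested). Nearly all members were thus on the same side of the control in this library.

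With siRNA 2, most of the same genes lay above the control instead. The median log2 ratio was 0.25, with quartiles of 0.15 and 0.34, and 77 of 81 members were higher, against 54% of all genes tested, whose median was 0.05. The 4 lower members were RPL7L1, RPL26L1, RPS27 and RPL38. At 1.5-fold, 1 member was higher (13.2% of all genes tested) and 2 were lower (10.1%), and 17 were within 10% (23.6%). The share of members past 1.5-fold was below that of all genes in both directions.

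At the members' median, the siRNA libraries differed more from each other than either did from the control. Set directly against siRNA 1, siRNA 2 had a median log2 ratio of 0.40 over the members, and 79 of 81 were higher, against 55.8% of all genes tested, whose median was 0.07. RPL26L1 and RPL7L1 were the 2 that were lower. At 1.5-fold, 10 members were higher with siRNA 2 (13.7% of all genes tested) and 0 were lower (10.5%). Those 10 were RPL22L1, RPL37, RPS9, RPS2, RPL34, RPL4, RPL36A, RPL12, RPLP2 and RPL29, of which RPL4, RPL36A and RPL29 are named after their values were seen. Between the siRNA libraries 80 members (98.8%) were apart by more than 2 counting errors, against 54.3% of all genes tested. A counting error is smaller where reads are more numerous, and the median member had a level of 74.3, against 2.21 for the other genes tested. These shares are therefore not alike in depth, and no share at matched level was taken. Counting error alone does not hold the variation between cultures, for which there is no measure here.

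The members kept close together in each comparison. The middle 50% of their log2 ratios spanned 0.14 with siRNA 1, 0.19 with siRNA 2 and 0.18 between the siRNAs, whereas those of all genes tested spanned 0.42, 0.63 and 0.65. Members are abundant and short, and both properties touch the precision and level of FPKM values. Their longest coding transcript had a median length of 1140 bases, against 3420 for the other coding genes tested. The 2400 other genes in the members' length range had medians of -0.11, -0.03 and 0.10 in the 3 comparisons, and the 408 other genes at or above the members' lower quartile of level had -0.05, 0.08 and 0.11. Each of these medians was nearer to 0 than the members' own. The part of length and level in the members' ratios was not tested further.

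**Figure D2:**
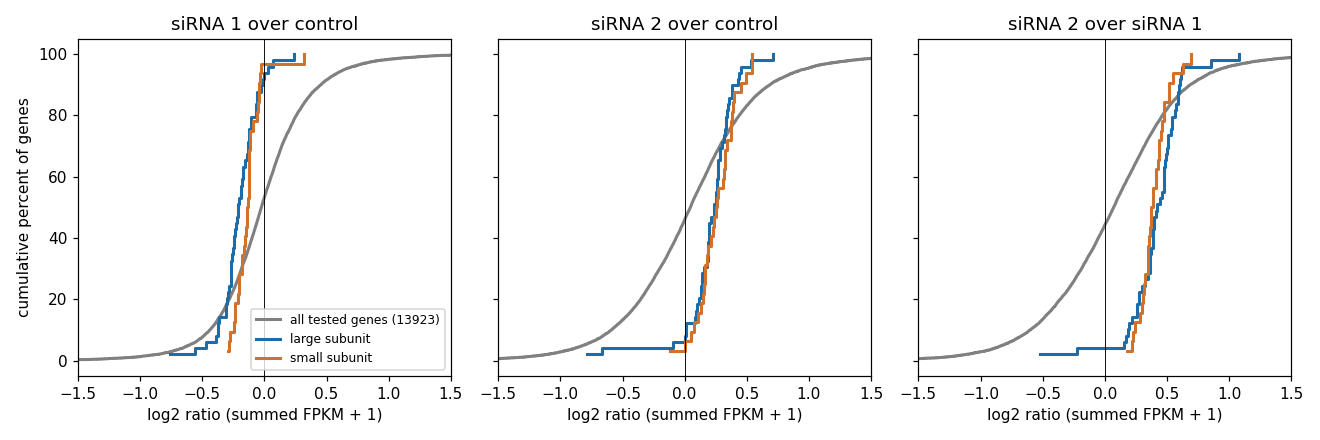
Cumulative percent of genes by log2 ratio, on the scale of summed FPKM + 1, for all 13923 genes tested and for the large and small subunit members, with 1 panel for each comparison. The member curves are steeper than that of all genes and are centred below 0 with siRNA 1 (medians -0.21 and -0.13) and above 0 with siRNA 2 (0.23 and 0.25) and between the siRNAs (0.42 and 0.38).

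No member was called by limma or by the fold rule over both siRNAs. Fitted with limma to all 13923 genes, with the control against both siRNA libraries, 0 members had an adjusted p under 0.05 (0% of all genes tested), and 0 had an unadjusted p under 0.05 (2.99% of all genes tested). RPL7L1 had the smallest unadjusted p, 0.105686, with a log2 difference of -0.67 ± 0.38 (SE) and an adjusted p of 0.999971. This fit has 1 residual degree of freedom, which comes from the difference between the siRNAs. For RPS6 the limma difference was 0.02 ± 0.41 (SE; adjusted p = 0.999971). At 1.5-fold in the same direction with both siRNAs, 0 members passed (4.66% of all genes tested). The spread behind the p-values is the difference between the siRNA libraries, moderated over all 13923 genes, and part of it may be technical. The single control adds no spread of its own.

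With siRNA 1 the median log2 ratio was -0.21 for the 49 large subunit genes and -0.13 for the 32 small subunit genes, a difference of -0.08. With siRNA 2 the medians were 0.23 and 0.25, a difference of -0.02, and between the siRNAs they were 0.42 and 0.38, a difference of 0.04. Median levels were 81.4, 73.9 and 97.0 FPKM for the large subunit and 61.3, 54.1 and 72.4 for the small subunit in the control, siRNA 1 and siRNA 2. No test was made between the subunits, since genes are not replicates. RPL5 and RPL11, which bind MDM2 together with 5S rRNA when ribosome assembly fails, followed the large subunit. RPL5 had a level of 239, 207 and 288, with log2 ratios of -0.21 and 0.27, and RPL11 had 99.2, 84.5 and 113, with -0.23 and 0.19. The 4 members on the X chromosome, RPL10, RPL36A, RPL39 and RPS4X, had medians of -0.04 with siRNA 1, 0.33 with siRNA 2 and 0.45 between the siRNAs.

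**Figure D3:**
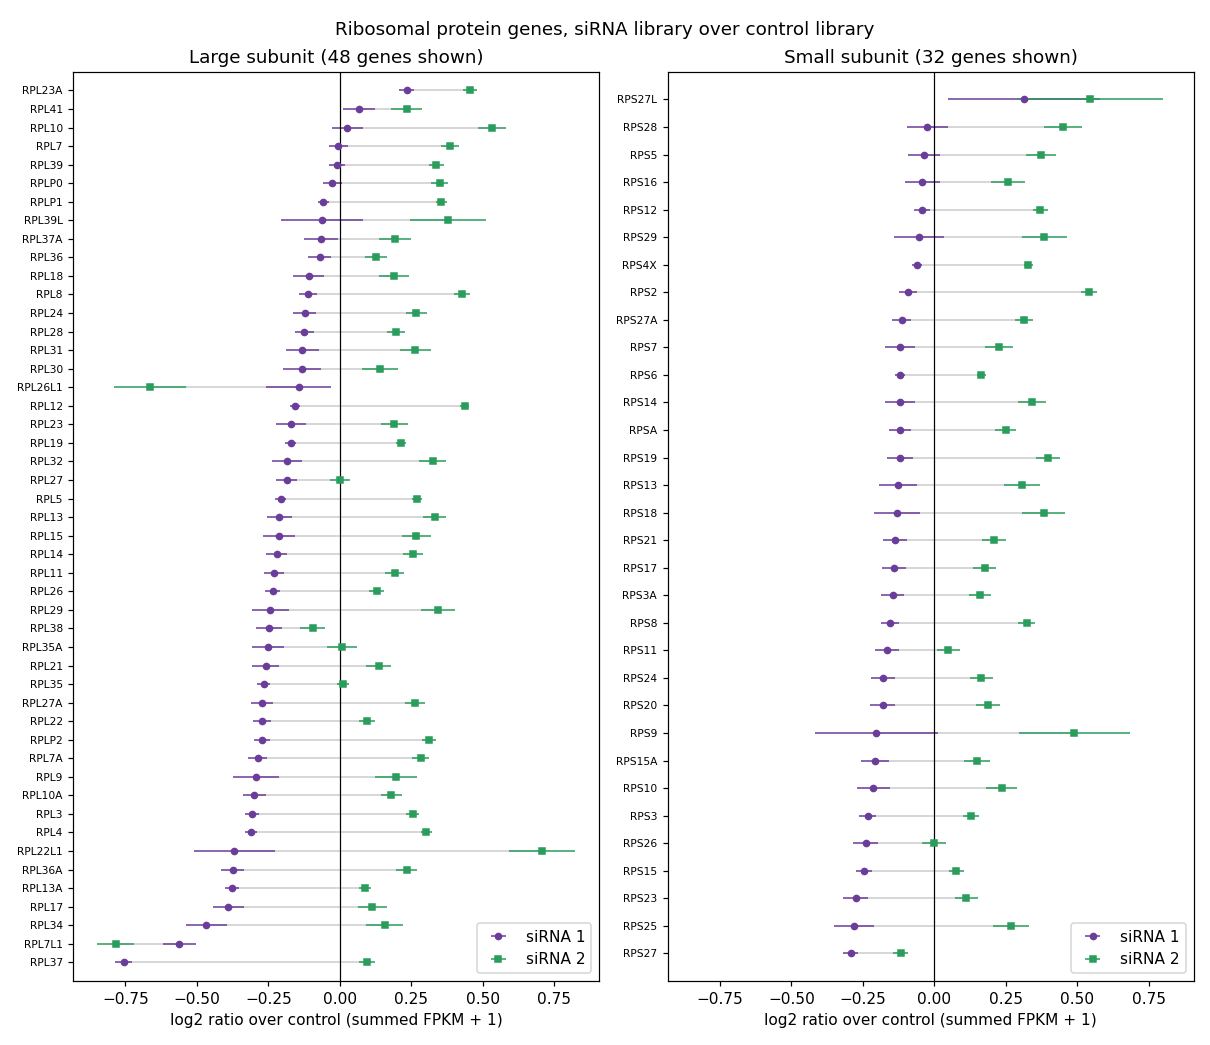
Log2 ratio of each member over the shared control library (summed FPKM + 1) with siRNA 1 (circles) and siRNA 2 (squares), ordered by the siRNA 1 value within each subunit, 1 large subunit gene not shown, with bars of 1 counting error that hold no variation between cultures. Squares lie right of circles in all but RPL26L1 and RPL7L1, and the circle of RPL37 lies farthest to the left, at -0.76.

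RPL37 stood farthest from the other members with siRNA 1. It encodes a zinc-binding protein of the large subunit and lies on chromosome 5 at 40825262 to 40835222, minus strand. Its level was 152 FPKM in the control, and 90.0 and 163 with siRNA 1 and siRNA 2. Only the siRNA 1 library was low, at 59.2% of the control, while siRNA 2 was 107% of it. The log2 ratio was -0.76 with siRNA 1, with a counting error of 0.03, and 0.10 with siRNA 2. All 6 listed transcripts were lower with siRNA 1, with log2 ratios from -0.76 to -0.62, although these models share reads from their common exons. The limma difference over both siRNAs was -0.33 ± 0.44 (SE; adjusted p = 0.999971). RPL36AL, a ribosomal protein gene outside the name rule, had nearly the same ratios, -0.76 and 0.04, from levels of 375, 222 and 386.

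RPL34, RPL17 and RPL13A were the next lowest of the canonical members with siRNA 1. RPL34, on chromosome 4, had a level of 34.1 FPKM in the control, and 24.6 and 38.0 with siRNA 1 and siRNA 2, with log2 ratios of -0.47 and 0.16. RPL17, which lines the exit tunnel, had 44.7, 34.1 and 48.3, with ratios of -0.39 and 0.11. RPL13A, named after its value was seen, had 196, 151 and 208, with ratios of -0.38 and 0.09. In each of these genes the control and siRNA 2 libraries lay near each other and siRNA 1 was the low one.

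All 4 members above the control with siRNA 1 were above it with siRNA 2 as well. Of these, RPS27L is described with its relative. RPL23A, an exit tunnel protein that contacts the signal recognition particle, had a level of 172 FPKM in the control, and 203 and 236 with siRNA 1 and siRNA 2. Its log2 ratios of 0.23 and 0.46 have counting errors of 0.03 each. RPL41, a very short basic peptide, had 69.1, 72.4 and 81.3, with ratios of 0.07 and 0.23. RPL10, which is added late in large subunit assembly, had 29.3, 29.9 and 42.4, with ratios of 0.03 and 0.53. RPL41 and RPL10 were within 10% of the control with siRNA 1 and stood apart from it only with siRNA 2. RPL23A and RPL41 have copies in the genome, 91 and 3 listed by name, whose reads are considered with the pseudogenes.

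RPS2 and RPS9 were among the members farthest above siRNA 1 in the siRNA 2 library. RPS2, at the mRNA entry of the small subunit, had a level of 104 FPKM in the control, and 97.2 and 151 with siRNA 1 and siRNA 2, with log2 ratios of -0.09 and 0.54. RPS9 had a level of 2.13, 1.84 and 3.02, with ratios of -0.20 and 0.49 and counting errors of 0.21 and 0.19. Both genes were highest with siRNA 2, while with siRNA 1 RPS2 was at 93.8% of the control and RPS9 at 86.4%. On the other side, RPL38, a short protein of the large subunit known for a role in patterning of the mouse skeleton, had 107, 90.1 and 100.2, below the control with both siRNAs, with ratios of -0.25 and -0.09. RPS27 was below it with both as well, with ratios of -0.29 and -0.12. RPS26, named after its value was seen, had 54.9, 46.4 and 54.9, so the siRNA 2 library was at the control level.

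The 5 relatives with names in L or L1 that passed the filter are low next to the genes they resemble. Of the 4 members at least 1.5-fold from the control with either siRNA, RPL37, RPL7L1, RPL26L1 and RPL22L1, 3 are such relatives. RPL7L1, on chromosome 6 at 42879618 to 42889925, had a level of 5.10 FPKM in the control, and 3.43 and 2.92 with siRNA 1 and siRNA 2. It was below the control in both siRNA libraries, with log2 ratios of -0.56 and -0.78 and counting errors of 0.06 each. RPL7, the gene it resembles, had 85.6, 85.3 and 112, so RPL7L1 was lower relative to RPL7 in both siRNA libraries than in the control.

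RPL26L1, on chromosome 5 at 172958729 to 172969771, had a level of 12.7 FPKM in the control, and 11.4 and 7.92 with siRNA 1 and siRNA 2. The siRNA 2 library was the low one, at 62.6% of the control, with log2 ratios of -0.14 and -0.66 and counting errors of 0.11 and 0.13. RPL26, which sits beside the exit tunnel and from which RPL26L1 differs little, had 248, 211 and 271, with its highest value in that same library. The limma difference of RPL26L1 was -0.40 ± 0.39 (SE; adjusted p = 0.999971).

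RPL22L1, on chromosome 3 at 170864875 to 170870208, had the widest difference between the siRNAs of any member. Its level was 7.68 FPKM in the control, and 5.91 and 12.6 with siRNA 1 and siRNA 2, or 76.9% and 165% of the control. The log2 ratios were -0.37 and 0.71, with counting errors of 0.14 and 0.12, and 1.08 between the siRNAs. RPL22, whose protein RPL22L1 can replace in the large subunit, had 103, 85.4 and 110, in the same order of libraries but with less distance between them. The limma difference of RPL22L1 was 0.17 ± 0.46 (SE; adjusted p = 0.999971).

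RPL39L and RPS27L complete the set of relatives. RPL39L had a level of 5.74 FPKM in the control, and 5.49 and 7.57 with siRNA 1 and siRNA 2, and RPL39, its X-linked relative in the exit tunnel, had 225, 223 and 284. Both genes had siRNA 1 near the control and siRNA 2 above it. RPS27L had 1.18, 1.49 and 1.77, with log2 ratios of 0.31 and 0.54, while RPS27 was below the control with both siRNAs. At 53.13 read equivalents in the control the counting error of the RPS27L ratios is 0.26, so its siRNA 1 value is within 2 counting errors of the control.

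**Figure D4:**
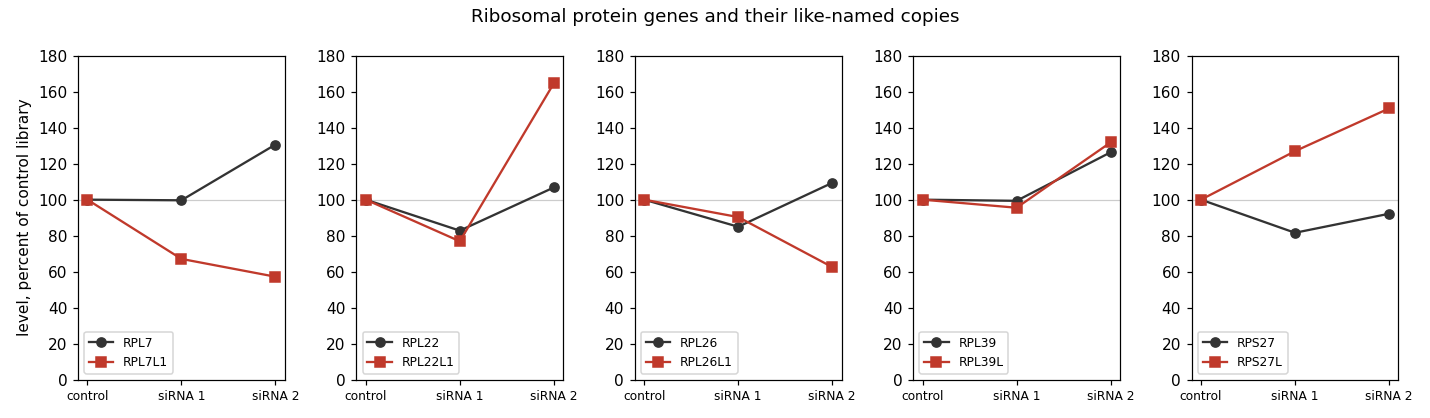
Level in each library as a percent of the control library, on an axis from 0, for 5 relatives with names in L or L1 (squares) and the genes they resemble (circles), 1 value per library, with lines that only join the points of a gene. RPL7L1 and RPL26L1 lie at 57.2% and 62.6% with siRNA 2, where RPL7 and RPL26 lie above 100%.

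Because SRSF5 acts in splicing, the members were also compared by the type of their listed transcripts. For each type, transcripts were summed per gene, and medians were taken over members with a mean sum of at least 1. Transcript numbers in brackets are those listed over all 81 members. The protein-coding sums of 81 members (439 transcripts) had median log2 ratios of -0.17 with siRNA 1 and 0.24 with siRNA 2. The retained-intron sums of 66 members (227 transcripts) had -0.18 and 0.22. Sums of transcripts annotated for nonsense-mediated decay, from 34 members (55 transcripts), had -0.21 and 0.19. Noncoding sums from 37 members (81 transcripts) had -0.18 and 0.23. The types gave nearly the same medians. Reads from a shared exon count towards transcripts of every type that hold it. This likeness is therefore in part set by the counting and cannot show whether splicing differed.

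Within genes, the difference between the retained-intron and the coding transcripts was also small. Over the 66 members with both, it had a median of -0.01 with siRNA 1, ranging from -0.08 in RPS14 to 0.05 in RPL15, and of -0.01 with siRNA 2. Reads from an exon count towards every isoform that holds it, so a change in 1 intron is diluted in these values. For RPS12 the retained-intron model is 136 bases longer than the coding model, and these bases were taken as 1 intron without a check of exon positions. The longer model held 34.5, 30.5 and 38 read equivalents more in the control, siRNA 1 and siRNA 2. Per base this is 2.16%, 2.08% and 1.99% of the coverage of the coding model. Retention in the introns of the other members was not analysed here.

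Several members have further copies in the files. RPS9 is listed on 9 alternate scaffolds with 55 transcripts, whose summed FPKM was 268, 233 and 373, against 27.7, 23.9 and 39.2 on chromosome 19. RPS18 is listed on 5 scaffolds, with sums of 729, 667 and 956 against 182, 166 and 238 on chromosome 6. The printed levels of RPS9 and RPS18 therefore rest on 1 of several listed copies and their rank among the members is uncertain, while the ratios on scaffolds and chromosomes were alike. For RPS9 the log2 ratios were -0.20 and 0.48 on scaffolds and -0.20 and 0.49 on the chromosome.

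Ribosomal protein genes have more processed pseudogenes than most gene families, and these near-identical copies can draw reads. Of 1143 pseudogenes named after members, 210 passed the filter, with median log2 ratios of 0.00 with siRNA 1 and 0.42 with siRNA 2, and 204 were above the control with siRNA 2. Their summed FPKM was large for some parents. The copies of RPL41 together had 119%, 119% and 118% of the summed FPKM of RPL41 in the control, siRNA 1 and siRNA 2. Those of RPSA had 31.5%, 35.1% and 35.3%, those of RPS26 26.6%, 29.3% and 32.8%, those of RPS2 25.6%, 26.6% and 27.6%, those of RPS28 22.9%, 22.8% and 23.5%, and those of RPL23A 21.5%, 21.2% and 22.7%. Of the genes compared with relatives, RPL39 had copies at 21.0%, 21.2% and 22.4% of its sum, RPL22 at 20.6%, 21.4% and 23.6%, and RPL7 at 16.8%, 18.2% and 19.9%. The placing of multi-mapped reads is not stated in the sources used here, so the levels of these 9 genes are uncertain and the share of their reads at the copies was not tested.

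Members with and without a pyrimidine start had similar medians. The 47 with such a start had median log2 ratios of -0.18, 0.25 and 0.40 with siRNA 1, with siRNA 2 and between the siRNAs, and the 18 with a window but no such start had -0.20, 0.22 and 0.41. RPL34, RPL13A and RPL22L1, which have the run printed above, and RPL7L1 and RPS27L, which lack it, lay at both ends of the range with siRNA 1 or siRNA 2. RPL34, which has a further start without the run, was counted by the start that has it.

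Other genes whose mRNAs belong to the TOP class had ratios close to those of the members. Of 18 such genes, mostly translation factors, 16 were below the control with siRNA 1 and 17 above it with siRNA 2, with medians of -0.12 and 0.29, and 0 were called by limma. EEF1A1, which brings aminoacyl-tRNA to the ribosome, had a level of 263, 251 and 348 FPKM. EEF2, which moves the ribosome along the mRNA, had 692, 606 and 875. Both followed the order of the members, whereas EIF4B, a helicase cofactor of initiation, had 22.2, 24.5 and 36.8, above the control with both siRNAs. The noncoding host gene GAS5 had 3.60, 3.20 and 5.59, and EEF1D had 6.54, 6.95 and 9.91.

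Ribosomal protein genes outside the name rule, besides RPL36AL, include FAU and RACK1. FAU, whose product is a fusion that yields a small subunit protein, had a level of 101, 84.8 and 110 FPKM, with log2 ratios of -0.26 and 0.12. RACK1, a signalling scaffold on the small subunit, had a level of 33.5, 30.9 and 40.7. Both were below the control with siRNA 1 and above it with siRNA 2, as most members were.

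Genes that control TOP mRNAs showed no shared direction. Of 18, 11 were lower and 7 higher with siRNA 1, and 8 lower and 10 higher with siRNA 2, with medians of -0.07 and 0.02, and 0 were called by limma. EIF4EBP2, a repressor of cap-dependent initiation that mTOR inactivates, was far above the control with both siRNAs, at a level of 9.28, 24.6 and 33.9 FPKM, with log2 ratios of 1.32 and 1.76. RHEB, the activator of mTOR, had 5.38, 7.57 and 9.18, and DEPTOR, an mTOR inhibitor, had 0.651, 0.170 and 0.382. MYC, which drives transcription of ribosomal genes, had 6.16, 4.84 and 9.27, in the order of the members. LARP1, the TOP mRNA binding protein, had 15.6, 13.5 and 14.3.

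Assembly factors had a lower median than the ribosomal proteins with siRNA 2; this difference was not tested. Of 32 assembly factors 26 were below the control with siRNA 1, with a median of -0.23, but 15 were lower and 17 higher with siRNA 2, with a median of 0.01. BRIX1, a large subunit assembly factor, had a level of 13.8, 8.79 and 8.49 FPKM, below the control with both siRNAs, and RRS1 had 35.8, 24.5 and 25.4. NOB1, the nuclease that matures 18S rRNA, had 24.0, 15.9 and 33.8, in the order of the members. Of the RNA polymerase I genes, 11 of 14 were tested, 10 of them lower with siRNA 1 (median -0.13) and 9 higher with siRNA 2 (median 0.31). Import factors and chaperones of ribosomal proteins, 13 of 16 tested, had medians of -0.12 and 0.02, and IPO7 was above the control with both, at 34.5, 48.9 and 52.2. In each of these lists limma called 0 genes.

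Mitochondrial ribosomal proteins, encoded in the nucleus, did not follow their cytosolic counterparts with siRNA 2. Of 78 genes 72 were below the control with siRNA 1, with a median of -0.27, and 63 with siRNA 2, with a median of -0.22, and 0 were called by limma. MRPL15 had a level of 29.6 FPKM in the control, and 22.4 and 12.4 with siRNA 1 and siRNA 2. The 37 genes of the mitochondrial genome had medians of 0.07 and -0.53. In bulk RNA a difference in RNA per cell and a difference in the kinds of cells present cannot be told apart for any of these lists.

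**Figure D5:**
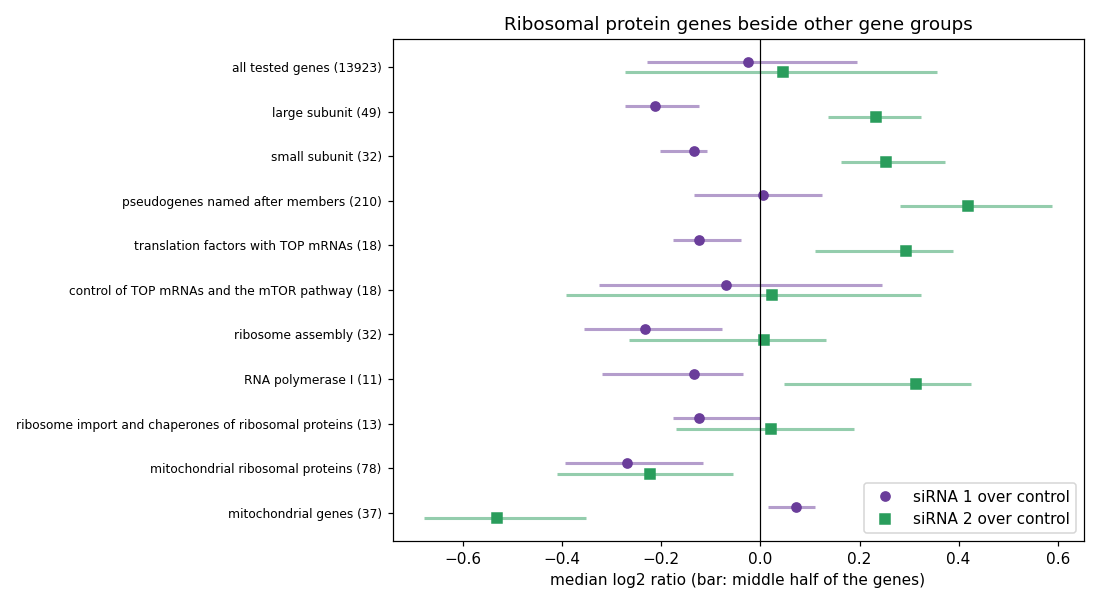
Median log2 ratio over the control (points) and the middle 50% of the genes (bars) with siRNA 1 and siRNA 2, for all genes tested, the large and small subunit members, the pseudogenes and the related lists, with the number of genes tested in brackets. Both subunits and the translation factors with TOP mRNAs have medians below 0 with siRNA 1 and above 0 with siRNA 2, and the mitochondrial ribosomal proteins have medians below 0 with both (-0.27 and -0.22).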

How the data were processed

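Per the file headers, the authors' values are in FPKM, 1 for each transcript, beside its exons and length. Per the labels' protocols, RNA came from a column kit and libraries from a SMARTer mRNA kit. The submitters' processing notes name the builds GRCh38.p12, GRCm38 and mm10 but not what each was used for. Of 804 member transcripts 802 are in GENCODE 29 and 756 lie at the same GRCh38 position. Aligner and counter: not given in the sources used here. FPKM multiplied by length gave whole multiples of a fixed step for 100% of values (tolerance 0.05), which behave as base overlaps. A read equivalent is 100 bases. Counting errors come from the transcript of each gene with the most read equivalents in the control, and cover counting error only.

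Levels are means over listed transcripts on chromosomes, and ratios were taken on log2(summed FPKM + 1), which understates differences of low genes. The filter was a mean sum of at least 1. Limma 3.58.1 in R 4.3.3 compared the control with the 2 siRNA libraries (trend option, Benjamini-Hochberg adjustment over all genes tested), with the single control taken to vary as they do. The fit was tested on simulated data. The members, lists and rules were chosen with earlier results of these data known. Members named are the 5 of highest level in each subunit, the 4 highest and 4 lowest ratios of each comparison, those at least 1.5-fold from the control, pairs differing by L or L1, those next to the filter, and RPSA, RPLP0, RPLP1, RPLP2, RPS6, RPL5 and RPL11 for their roles. Genes named from other lists are among the 3 farthest from the control there, except FAU, EEF1A1, EEF2, MYC and LARP1, named as well-known genes after their values were seen. One of the large subunit members and a few genes of the lists are not reported here by name. Alternatives changed the gene level, pseudocount, filter, scaling and libraries.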

Additional observations from a re-analysis of the deposited data

How the results depend on the processing

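The members' medians and the subunit differences kept their sign in 10 of 10 alternatives, 2 of which (adding alternate scaffolds, leaving out names in L or L1) were chosen after seeing the data. The members' median ranged from -0.18 to -0.15 with siRNA 1, from 0.19 to 0.25 with siRNA 2 and from 0.32 to 0.41 between the siRNAs. Large minus small subunit ranged from -0.08 to -0.06, from -0.02 to -0.0041 and from 0.04 to 0.05. Members at least 1.5-fold from the control with both siRNAs numbered 0 under each other setting; with 1 siRNA library left out the rule asks for 1 library alone, and the count was 1 to 3 (3 without siRNA 1, 1 without siRNA 2). Limma called 0 members in every setting run, with a smallest adjusted p between 0.956217 and 0.999996. It called 2 genes of any kind with protein-coding transcripts alone and 3 with a robust fit. Limma without 1 library was not run, since no residual degree of freedom is left. No paired analysis was made, since the labels name no repeat culture that would match the control to an siRNA library. Depth limits RPS27L, RPL3L and RPL10L, at 53.13, 2.5 and 0.58 read equivalents in the control.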
